A study of Danio rerio with 8 samples.

Results

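The insulin-like growth factor (IGF) ligands, their receptors and their binding proteins were followed in RNA-seq libraries of cells sorted from adult zebrafish heart ventricles. The 10 members were igf1, igf2a, igf2b, igf1ra, igf1rb, igfbp1a, igfbp3, igfbp5a, igfbp5b and igfbp7, chosen by gene symbol, and they corresponded to 10 of the 31388 identifiers in the expression table. igf2a and igf2b were matched by their full symbol. The other members are listed without a paralog letter: IGF1 (ENSDARG00000094132), IGFBP1 (ENSDARG00000099351, with igfbp1b listed separately), IGFBP3 (ENSDARG00000099144), IGFBP7 (ENSDARG00000104138), and 2 identifiers each for IGF1R (ENSDARG00000027423 and ENSDARG00000034434) and IGFBP5 (ENSDARG00000025348 and ENSDARG00000039264). The names do not say which of these pairs is the a and which the b paralog, so both are given by identifier.

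The libraries labelled GFP-positive came from cells with green fluorescent protein and those labelled GFP-negative from the remaining ventricular cells of the same untreated hearts, all from the reporter line Tg(-6.8wt1a:EGFP), whose fluorescent protein is driven by DNA from upstream of wt1a and thus reports that promoter, not a sorted cell type as such. Each of 4 pools of 3 to 5 hearts from fish aged 3 to 9 months gave 1 library of both kinds, 8 libraries in all. Levels are TPM (transcript abundances), which are corrected for transcript length and sum to the same total in each library, and the sequencing depth is unknown. wt1a (listed as WT1), which should mark the GFP-positive cells, stood at 71.3, 39.5, 1.15 and 2.59 TPM in the GFP-positive libraries of pools 3, 4, 1 and 2, against 107, 44.3, 2.42 and 1.42 TPM in the GFP-negative ones. It separated pools 3 and 4 from pools 1 and 2 and not the labelled sorts, so every direction between sorts below is that of the labels. The median log2 difference of all 13877 tested genes, pools 3 and 4 minus pools 1 and 2, was 0.80 with the TPM as deposited and -0.03 after scaling between libraries. The second value follows from the scaling, which takes most genes as unchanged between libraries. Scaling factors were 1.21 to 1.89 in pools 3 and 4, against 0.603 to 0.818 in pools 1 and 2. Directions between pools after scaling rest on that assumption, which was not tested.

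IGF1 and IGF2 are secreted hormones that act through the IGF1 receptor, a tyrosine kinase related to the insulin receptor, and from there through adaptor proteins, PI3 kinase, AKT and the mTOR complex on growth and survival. Binding proteins hold most IGF outside cells, prolong its life or keep it from the receptor, and are themselves cut by proteases. In the zebrafish heart igf2b is known as a ligand that responds to injury, and IGF signalling as a stimulus of cardiomyocyte proliferation.

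Of the ligands, igf2b was found in each library and the other members were at or near the lower end of the scale. igf2b (ENSDARG00000033307) had 184, 91.4, 66.0 and 65.6 TPM in the GFP-positive libraries of pools 3, 4, 1 and 2, against 161, 138, 67.2 and 99.1 TPM in the GFP-negative ones. It made up between 99.5% and 100% of the summed TPM of igf1, igf2a, igf2b and igf3 in each library. igf1, a circulating growth factor of adult vertebrates, was listed at 0.16 TPM in the GFP-positive library of pool 1 and at 0 in the other 7. igf2a was listed at 0.23 and 0.14 TPM in the GFP-positive libraries of pools 4 and 1, against 0.06 TPM in the GFP-negative library of pool 3, and at 0 in the other 5. igf3, a fish-specific ligand known from the gonad, was listed at 0 throughout. Neither igf1 nor igf2a reached 1 TPM in any library, and they were not tested.

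**Figure D1:**
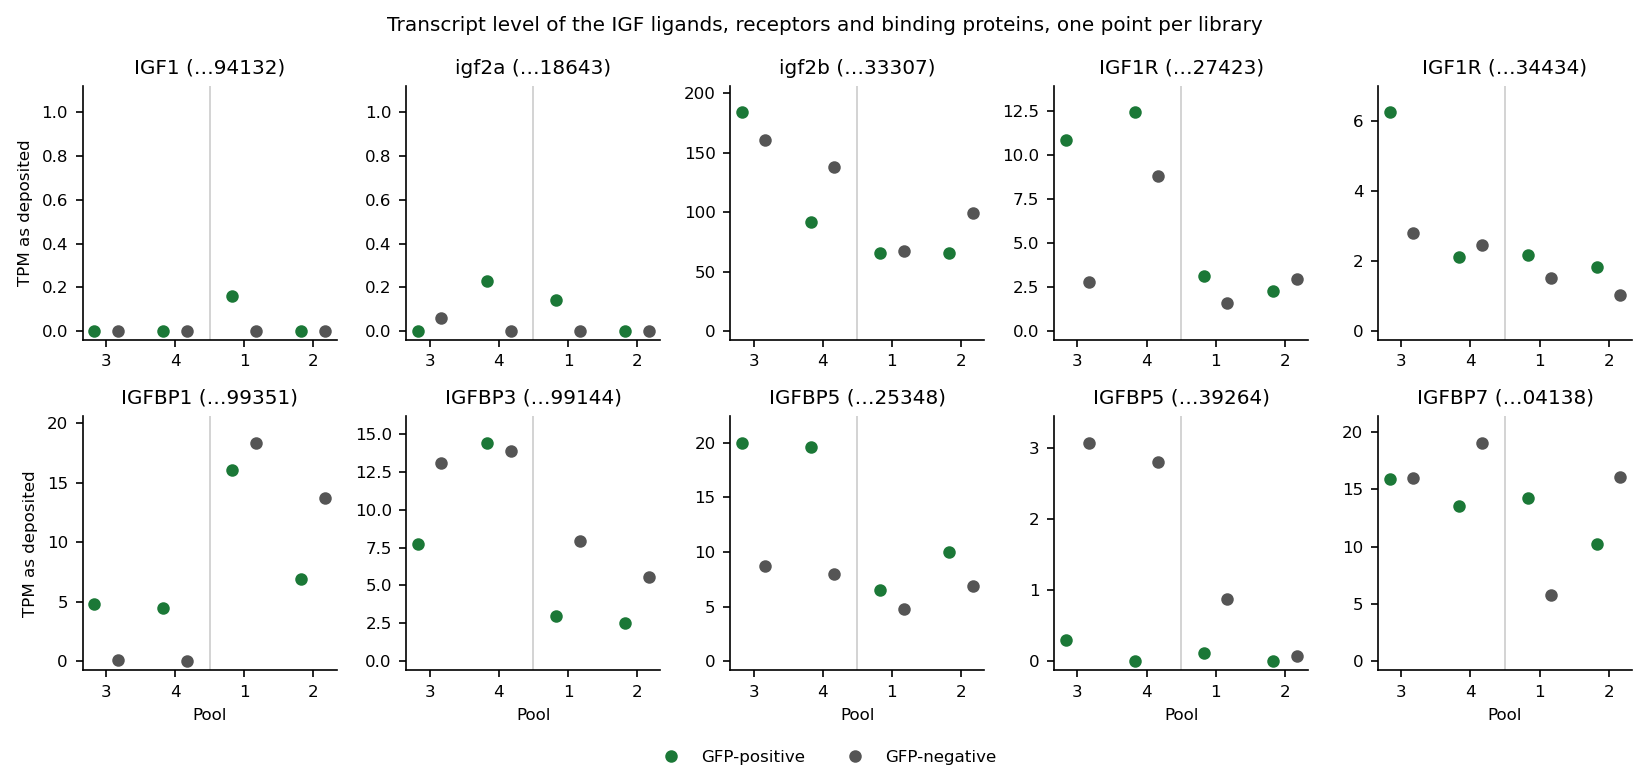
TPM as deposited (y axis, a separate linear scale per panel) of the 10 members in each library, by pool (x axis), with GFP-positive libraries in green left of GFP-negative libraries in grey; panel titles give the listed symbol and the last digits of the identifier, and the grey line divides pools 3 and 4 from pools 1 and 2. igf2b lay between 65.6 and 184 TPM, IGF1 and igf2a did not exceed 0.23 TPM, and IGFBP1 was the member whose pools did not overlap.

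The 10 members spanned a wide range of levels. On the TPM scale igf2b averaged 109 ± 46.4 (SD, n = 8 libraries) and stood above each other member in all 8 libraries. Next came IGFBP7 at 13.9 ± 4.13, IGFBP5 ENSDARG00000025348 at 10.6 ± 5.92, IGFBP3 at 8.51 ± 4.79, IGFBP1 at 8.04 ± 7.12 and IGF1R ENSDARG00000027423 at 5.60 ± 4.36 TPM (SD, n = 8). These neighbours were not separated beyond their spread: IGFBP7 was above IGFBP5 in 6 of 8 libraries, IGFBP5 above IGFBP3 in 5, IGFBP3 above IGFBP1 in 4 and IGFBP1 above IGF1R in 4. IGF1R ENSDARG00000034434 averaged 2.52 ± 1.60 TPM (SD, n = 8), under ENSDARG00000027423 in 7 of 8 libraries. IGFBP5 ENSDARG00000039264 was the lowest member with a value of 1 TPM or more, at 0.906 ± 1.29 TPM (SD, n = 8).

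Between the labelled sorts, none of the 7 members tested passed the threshold. The test was limma on log2(scaled TPM + 1) with pool as a block, two-sided, with Benjamini-Hochberg adjusted p over 13877 genes. It called 0 of 7 members and 0 genes in all (0% of those tested). At an unadjusted p under 0.05 there was 1 member, IGFBP5 ENSDARG00000025348, where 5.55% of all genes had such a p. The median difference over the 7 members, GFP-positive minus GFP-negative, was 0.50 with 5 higher and 2 lower, beside 0.01 over all genes tested.

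IGFBP5, a binding protein that also attaches to the extracellular matrix, had opposite directions in its 2 identifiers. ENSDARG00000025348 had 20.01, 19.6, 6.48 and 9.99 TPM in the GFP-positive libraries of pools 3, 4, 1 and 2, against 8.72, 8.01, 4.83 and 6.88 TPM in the GFP-negative ones. It was the 1 member of 7 with the higher value in the GFP-positive library in 4 of 4 pools, an arrangement that 7.15% of all tested genes had, and 0 of 7 had the reverse, beside 6.51% of all genes. In the TPM as deposited the sorts overlapped through the GFP-positive library of pool 1. After scaling, the values in the GFP-positive libraries of pools 3, 4, 1 and 2 were 12.3, 16.3, 10.7 and 14.5. Those in the GFP-negative ones were 4.62, 6.63, 7.34 and 8.42. All GFP-positive values thus lay above all GFP-negative ones, as in 0.894% of all tested genes. That share covers this direction alone, and the reverse was not counted. The log2 difference of 0.91 had an SE of 0.28 and a 95% confidence interval of 0.27 to 1.55, and did not pass (limma adjusted p = 0.853). With any single pool or library left out it lay between 0.77 and 1.07. An exact permutation test over the signs of the 4 pools gave p = 0.125, two-sided, which is the smallest that 4 pairs allow.

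ENSDARG00000039264, the other IGFBP5 identifier, was the lower one in the GFP-positive library of each pool. It had 0.30, 0, 0.12 and 0 TPM in the GFP-positive libraries of pools 3, 4, 1 and 2, against 3.07, 2.80, 0.88 and 0.08 TPM in the GFP-negative ones. It reached 1 TPM in 2 of 8 libraries and was therefore not among the genes tested. In the fit without a filter on low values its log2 difference was -0.99 (SE 0.34; limma adjusted p = 0.823), and the exact permutation test gave p = 0.125. This difference rests on values near 0 and depends on the pseudocount.

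IGFBP3, the main carrier of circulating IGF in mammals, was on the lower side in GFP-positive libraries in 3 of 4 pools. It had 7.75, 14.4, 2.99 and 2.50 TPM in the GFP-positive libraries of pools 3, 4, 1 and 2, against 13.1, 13.9, 7.90 and 5.57 TPM in the GFP-negative ones. The exception was pool 4, where both libraries were close, and the 2 sorts overlapped. The log2 difference of -0.57 (SE 0.32; limma adjusted p = 0.853) did not pass. The ratio of IGFBP5 ENSDARG00000025348 to IGFBP3 TPM within a library, which does not depend on scaling, was 2.58, 1.36, 2.17 and 4.00 in the GFP-positive libraries of pools 3, 4, 1 and 2, against 0.668, 0.577, 0.611 and 1.24 in the GFP-negative ones. The groups did not overlap in this ratio, which was chosen after the values had been seen and is given without a test. It sets the tested member with the highest log2 difference between sorts over the one with the lowest, which favours a separation. No share of gene pairs with such a separation was computed.

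IGFBP7, which binds IGF weakly and is found around vessels, had no common direction between sorts. It had 15.9, 13.6, 14.2 and 10.2 TPM in the GFP-positive libraries of pools 3, 4, 1 and 2, against 15.98, 19.1, 5.79 and 16.1 TPM in the GFP-negative ones. The 2 sorts overlapped, and only the GFP-negative library of pool 1 fell below 10 TPM. The log2 difference of 0.17 (SE 0.35, 95% confidence interval -0.63 to 0.97, limma adjusted p = 0.954) did not pass and turned to -0.21 without pool 1. For igf2b the difference of -0.11 had an SE of 0.21 and a 95% confidence interval of -0.60 to 0.39 (limma adjusted p = 0.953), and it turned to 0.03 without pool 4.

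Both IGF1R identifiers had the higher value in the GFP-positive library in 3 of 4 pools. ENSDARG00000027423 had 10.9, 12.4, 3.12 and 2.27 TPM in the GFP-positive libraries of pools 3, 4, 1 and 2, against 2.77, 8.82, 1.58 and 2.94 TPM in the GFP-negative ones, with the exception in pool 2. ENSDARG00000034434 had 6.25, 2.11, 2.16 and 1.84 TPM, against 2.81, 2.45, 1.52 and 1.03 TPM, with the exception in pool 4. The sorts overlapped for both. The log2 differences were 0.71 (SE 0.39; limma adjusted p = 0.853) for the first and 0.50 (SE 0.38; limma adjusted p = 0.878) for the second, and neither passed. Without the GFP-positive library of pool 3 the differences were 0.40 and 0.34, and without the GFP-negative one 0.39 and 0.33.

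Summed over both identifiers, IGF1R had 17.1, 14.5, 5.28 and 4.11 TPM in the GFP-positive libraries of pools 3, 4, 1 and 2, against 5.58, 11.3, 3.10 and 3.97 TPM in the GFP-negative ones. It was thus higher in 4 of 4 pools, also after scaling, although in pool 2 by 0.05 on the log2 scale as deposited and 0.30 after scaling. The 2 sorts overlapped in this sum. Of single tested genes, 7.15% were higher in 4 of 4 pools after scaling, a share that was not computed for sums. The ratio of igf2b to summed IGF1R TPM was 10.8, 6.28, 12.5 and 15.9 in the GFP-positive libraries of pools 3, 4, 1 and 2, against 28.8, 12.3, 21.7 and 24.97 in the GFP-negative ones. It was lower in the GFP-positive library in 4 of 4 pools, by a mean log2 ratio of -0.96 ± 0.34 (SD, n = 4 pools), and the 2 sorts overlapped. The IGF1R share of the summed IGF1R and insulin receptor (INSR) TPM was 33.9%, 43.2%, 18.4% and 20.9% in the GFP-positive libraries, against 13.7%, 31.0%, 14.1% and 13.3% in the GFP-negative ones of the same pools. In this share, too, the 2 sorts overlapped. The sums, ratios and shares were chosen after the values had been seen, share the IGF1R values and were not tested.

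**Figure D2:**
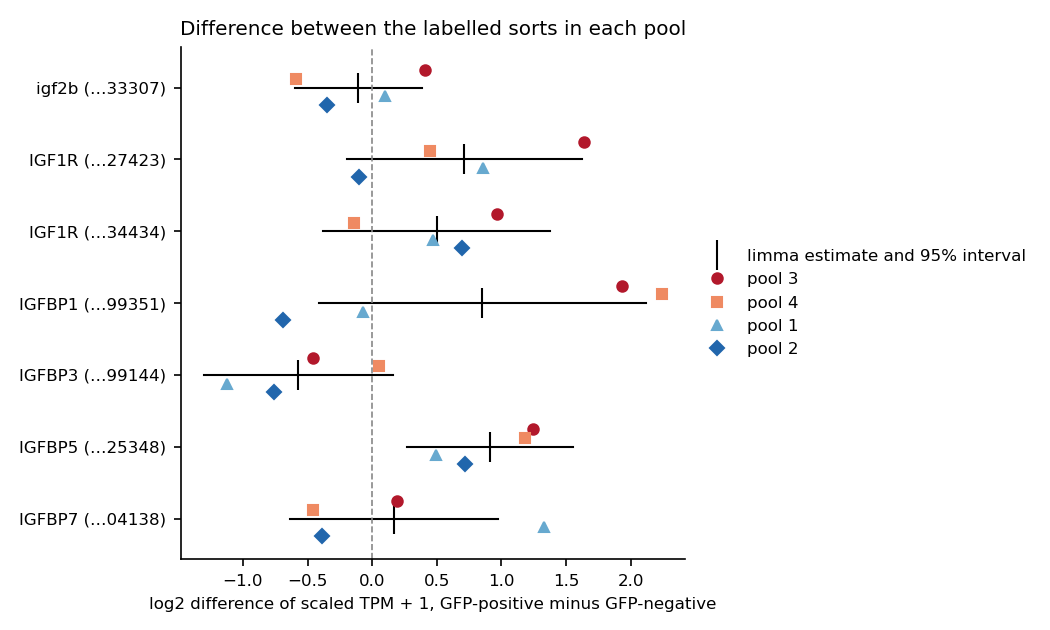
log2 difference of scaled TPM + 1 between the labelled sorts, GFP-positive minus GFP-negative (x axis), for the 7 tested members (rows); coloured points are the 4 pools, the black tick is the limma estimate and the black line its 95% confidence interval. IGFBP5 ENSDARG00000025348 is the row with all 4 pools right of 0, and the points of IGFBP1 lie on both sides, with pools 3 and 4 at 1.93 and 2.24 and pools 1 and 2 at -0.07 and -0.69.

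Among the pools, IGFBP1 was the 1 member of 7 that the F test called on scaled TPM. That count is close to the share called over all tested genes, given below. IGFBP1, a binding protein made by the mammalian liver in fasting and induced by low oxygen in zebrafish embryos, had 4.79, 0.07, 4.51 and 0 TPM in pools 3 and 4 (GFP-positive and GFP-negative of pool 3, then of pool 4), against 16.01, 18.4, 6.89 and 13.7 TPM in pools 1 and 2 in the same order. All 4 libraries of pools 3 and 4 lay below all 4 of pools 1 and 2, with the TPM as deposited and after scaling. Of all tested genes, 6.26% lay wholly below and 33.4% wholly above in the TPM as deposited, and 14.5% and 12.1% after scaling; of the 7 members, 1 lay below and 0 above on both scales. The mean was 2.34 ± 2.67 TPM (SD, n = 4) in pools 3 and 4 and 13.7 ± 4.94 TPM (SD, n = 4) in pools 1 and 2. The F test of the pool term (limma, Benjamini-Hochberg) called it, with an adjusted p of 0.0276, and it was the 1 called member of 7 tested, where 12.9% of all genes were called and 7.85% were called with pools 1 and 2 the higher ones. The spread in this test comes from the 2 libraries of each pool, which share hearts according to the labels alone. The arrangement of pools 3 and 4 against pools 1 and 2 was chosen with the data known, so that differences between these pairs are a description.

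The IGFBP1 call was not stable. Over 21 alternatives its adjusted p ran from 0.00900 to 0.141. It was lost with a pseudocount of 0.1 (adjusted p = 0.115), with the TPM as deposited (0.0723), without a filter on low values (0.122), without pool 1 (0.139) and without single libraries: GFP-positive of pool 1 (0.0852), GFP-negative of pool 1 (0.141), GFP-negative of pool 3 (0.0604) and GFP-negative of pool 4 (0.0519). The log2 difference, pools 3 and 4 minus pools 1 and 2, was -3.24 after scaling and -2.53 as deposited, and was negative in each alternative.

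In IGFBP1 the labelled sorts also went opposite ways in the 2 pairs of pools. The GFP-positive library was the higher one in pools 3 and 4, with 4.79 and 4.51 TPM against 0.07 and 0 in the GFP-negative one. It was the lower one in pools 1 and 2, with 16.01 and 6.89 TPM against 18.4 and 13.7. The log2 difference between sorts was 0.85 (SE 0.54; limma adjusted p = 0.865) over all pools, and ran from 0.35 without pool 4 to 1.43 without pool 2. In a fit with a separate difference per pair of pools, added after the data were seen, it was 2.09 in pools 3 and 4 and -0.38 in pools 1 and 2. The difference of these differences was 2.47 (SE 0.66; limma adjusted p = 0.873 over all genes) and did not pass, and 5.76% of all tested genes had the same arrangement of signs. Of the 7 members, the interaction was called in 0, as it was for all genes (0%), and 5.67% of all genes had an unadjusted p under 0.05.

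Of the 5 liver markers listed, serpina1, fgb and apoa2 were listed at 0 in each library and fabp10a at 0.15 TPM in 1 library and 0 in the others. The fifth, the transferrin gene tfa, had 342 to 1427 TPM in pools 3 and 4, against 22.5 to 31.1 TPM in pools 1 and 2, opposite to IGFBP1. Summed markers of the other cell types listed, except macrophages, moved with the pools. The summed TPM of 4 endothelial and endocardial markers was 14.4 to 33.5 in pools 3 and 4, against 119 to 217 in pools 1 and 2, and that of 6 cardiomyocyte identifiers 1247 to 2912, against 18225 to 25436. The sum of 4 erythrocyte identifiers was 5.95 to 31.5 TPM in pools 3 and 4, against 644 to 1503 in pools 1 and 2. The 5 fibroblast markers went the other way, with 2132 to 4728 TPM in pools 3 and 4, against 101 to 187 in pools 1 and 2, as did the sum of the 5 epicardium markers with 224 to 453, against 50.4 to 137. Of these 5, ALDH1A2 ran opposite to the sum, with 1.60 to 5.55 TPM in pools 3 and 4, against 38.3 to 125 in pools 1 and 2, where it made up most of the sum. The 5 smooth muscle and pericyte identifiers summed to 429 to 681 TPM in pools 3 and 4, against 54.0 to 85.3 in pools 1 and 2. TAGLN ENSDARG00000033466 carried that sum, with 399 to 611 TPM in pools 3 and 4, against 37.3 to 66.5 in pools 1 and 2, whereas MYH11 ENSDARG00000009782 had 0.26 to 4.19 TPM in pools 3 and 4, against 7.86 to 14.1 in pools 1 and 2. The 11 macrophage identifiers summed to 10.4 to 25.8 TPM in pools 3 and 4, against 14.2 to 22.8 in pools 1 and 2. Their part in the differences between pools was not tested, and in bulk libraries fewer cells of a type and less RNA per cell cannot be told apart.

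The other 6 tested members did not pass the F test, and the direction of 4 of them between pairs of pools depended on scaling. With the TPM as deposited, 6 of 7 members were higher in pools 3 and 4, with a median log2 difference of 0.83 beside 0.80 over all genes. After scaling, 2 were higher and 5 lower, with a median of -0.13 beside -0.03. igf2b had 91.4 to 184 TPM in pools 3 and 4, against 65.6 to 99.1 TPM in pools 1 and 2, a log2 difference of 0.91 as deposited that turned to -0.15 after scaling (limma F test adjusted p = 0.938). With the TPM as deposited the F test called igf2b (adjusted p = 0.0368) and not IGFBP1. On that scale igf2b was the 1 called member of 7, where 28.9% of all genes were called. IGF1R ENSDARG00000034434 turned from 0.67 as deposited to -0.08 after scaling, IGFBP5 ENSDARG00000025348 from 0.83 to -0.13 and IGFBP7 from 0.52 to -0.47. IGF1R ENSDARG00000027423 and IGFBP3 were positive on both scales, at 1.36 as deposited and 0.53 scaled for the receptor (limma F test adjusted p = 0.402) and 1.28 and 0.35 for the binding protein (limma F test adjusted p = 0.361). Both fell slightly below 0 with 1 library or pool left out, the lowest values being -0.055 and -0.11.

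**Figure D3:**
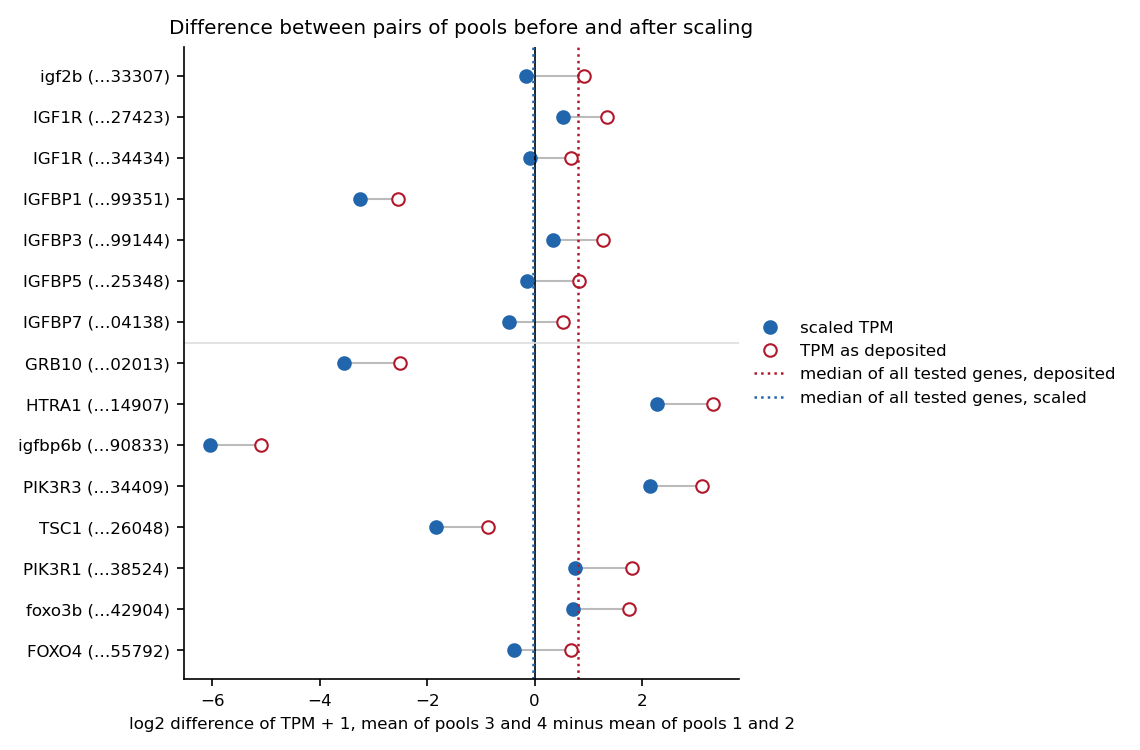
log2 difference of TPM + 1, mean of pools 3 and 4 minus mean of pools 1 and 2 (x axis), for the 7 tested members (above the grey line) and 8 other pathway genes (below it); filled blue points are scaled TPM, open red points TPM as deposited, and dotted lines the medians of all 13877 tested genes. igf2b, one IGF1R, one IGFBP5 and IGFBP7 lie right of 0 as deposited and left of 0 after scaling, while IGFBP1 lies left of 0 on both scales.

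Taken within each library, which needs no scaling, the make-up of the binding protein transcripts divided the pools, mainly through igfbp6b, which is not a member. The 10 identifiers of IGF binding proteins (IGFBP1, igfbp1b, 2 of IGFBP2, IGFBP3, 2 of IGFBP5, igfbp6a, igfbp6b and IGFBP7) summed to 79.9, 52.8, 99.1 and 64.1 TPM for pools 3 and 4 (GFP-positive and GFP-negative of pool 3, then of pool 4), against 202, 329, 292 and 296 TPM for pools 1 and 2. The 5 member binding proteins held 52.6% to 77.5% of this sum in pools 3 and 4, against 10.1% to 19.7% in pools 1 and 2. Unlike these shares, their own summed level depended on scaling: it was 46.4 ± 5.03 TPM (SD, n = 4) in pools 3 and 4 and 37.4 ± 5.51 TPM (SD, n = 4) in pools 1 and 2 as deposited, but 32.8 ± 9.15 in pools 3 and 4 and 54.5 ± 9.70 in pools 1 and 2 (SD, n = 4 each) after scaling, so that its direction turned.

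Most of the remainder in pools 1 and 2 was igfbp6b (ENSDARG00000090833), whose mammalian counterpart prefers IGF2 over IGF1. It had 2.65, 5.18, 26.8 and 2.28 TPM in pools 3 and 4, against 157, 287, 249 and 249 TPM in pools 1 and 2, in the same order of libraries. All of pools 3 and 4 lay below all of pools 1 and 2, and within pools 3 and 4 the GFP-positive library of pool 4 was the high one. igfbp6b made up 3.32% to 27.0% of the binding protein TPM in pools 3 and 4, against 77.8% to 87.2% in pools 1 and 2. Without igfbp6b, the other 9 identifiers summed to 47.6 to 77.2 TPM in pools 3 and 4, against 42.1 to 47.8 TPM in pools 1 and 2. On that sum, as deposited, the pairs of pools overlapped. The binding proteins that were neither members nor igfbp6b (igfbp1b and IGFBP2, named after their values were seen) held 12.6% to 35.6% in pools 3 and 4, against 1.32% to 4.67% in pools 1 and 2. They exceeded igfbp6b in 3 of the 4 libraries of pools 3 and 4, led by IGFBP2 ENSDARG00000031422 with 34.01% in the GFP-positive library of pool 3 and by igfbp1b with 17.2% in the GFP-negative library of pool 4. These shares also depend on igfbp6b, which is part of the sum. In level, igfbp1b overlapped, with 1.15 to 11.04 TPM in pools 3 and 4, against 0.90 to 10.56 TPM in pools 1 and 2. The 2 IGFBP2 identifiers went opposite ways, with means of 11.5 against 0.85 TPM for ENSDARG00000031422 and 0.56 against 1.915 TPM for ENSDARG00000052470. The log2 difference of igfbp6b was -6.05 after scaling and -5.10 as deposited (limma F test adjusted p = 0.00257), and the call held in each alternative run. Summed binding protein TPM, igfbp6b included, was 0.328 to 1.08 times that of igf2b in pools 3 and 4, against 2.99 to 4.89 times in pools 1 and 2. In pools 1 and 2 most of that summed TPM was igfbp6b, so the ratio does not describe the binding proteins as a family. The summed endothelial, cardiomyocyte and erythrocyte markers given above were also lower in pools 3 and 4, and their part was not tested.

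**Figure D4:**
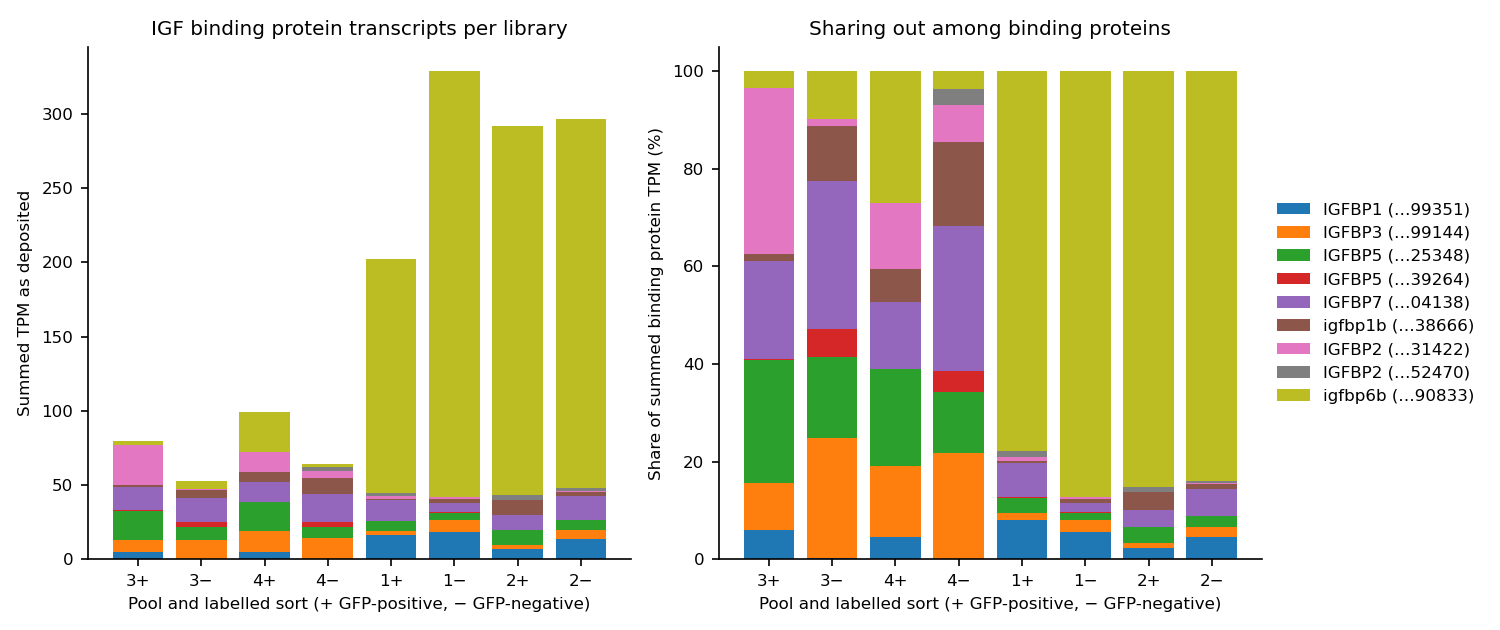
Summed TPM as deposited (left) and share of that sum in percent (right) of the IGF binding protein identifiers, 1 bar per library, labelled by pool and sort (+ GFP-positive, − GFP-negative); igfbp6a was listed at 0 and is not drawn. igfbp6b takes 3.32% to 27.0% of the bars of pools 3 and 4, against 77.8% to 87.2% in pools 1 and 2.

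Beyond the members, 66 other identifiers of the IGF pathway were listed, 50 of them tested. Among the pools 5 of the 50 were called by the F test, beside 12.9% of all genes, with 2 highest in pools 3 and 4 (4.55% of all genes) and 3 highest in pools 1 and 2 (7.85% of all genes). With the TPM as deposited it called 16 of the 50, beside 28.9% of all genes. The median log2 difference of the 50, pools 3 and 4 minus pools 1 and 2, was -0.18 after scaling beside -0.03 over all genes, and 0.77 as deposited beside 0.80. Between the labelled sorts 0 of 50 were called (0% of all genes), with 4 at an unadjusted limma p under 0.05, beside 5.55% of all genes.

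Beside igfbp6b, the genes called were HTRA1, GRB10, PIK3R3 and TSC1. HTRA1 (ENSDARG00000014907), a secreted serine protease whose mammalian form cuts IGF binding proteins, had 292, 176, 189 and 131 TPM in pools 3 and 4, against 17.4, 13.6, 20.4 and 21.1 TPM in pools 1 and 2. Its log2 difference was 3.33 as deposited and 2.28 after scaling (limma F test adjusted p = 0.00193). PIK3R3 (ENSDARG00000034409), a regulatory subunit of PI3 kinase, had 25.3 to 63.2 TPM in pools 3 and 4, against 3.24 to 4.63 TPM in pools 1 and 2. The log2 difference was 3.11 as deposited and 2.14 after scaling (adjusted p = 0.00460 in the limma F test). GRB10 (ENSDARG00000002013), an adaptor that binds the insulin and IGF1 receptors and restrains them, had 7.49 to 34.5 TPM in pools 3 and 4, against 75.7 to 122 TPM in pools 1 and 2. Its log2 difference was -2.51 as deposited and -3.54 after scaling (limma F test adjusted p = 0.00149). These 3 genes, named because the F test called them, did not overlap between the pairs of pools and were called in each alternative. After scaling, 8 of the 50 lay wholly above in pools 3 and 4 and 6 wholly below, beside 12.1% and 14.5% of all genes. As deposited, 19 lay wholly above and 2 wholly below, beside 33.4% and 6.26% of all genes.

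TSC1 (ENSDARG00000026048), a brake on the mTOR complex, had 4.81 to 13.7 TPM in pools 3 and 4, against 11.8 to 16.2 TPM in pools 1 and 2. The overlap came from the GFP-negative library of pool 3. The log2 difference was -0.86 as deposited and -1.83 after scaling (limma F test adjusted p = 0.0325). This call was lost with the TPM as deposited (0.215), with a pseudocount of 0.1 (0.0519), without a filter on low values (0.0947) and without a variance trend (0.0596). It was also lost whenever pool 1, 2 or 4, or a single library of these, was left out (adjusted p = 0.0608 to 0.124). TSC1 ENSDARG00000057918, named after its values were seen, was not called (limma F test adjusted p = 0.951). It had 5.73 to 12.5 TPM in pools 3 and 4, against 3.34 to 4.53 TPM in pools 1 and 2. Its log2 difference was 0.96 as deposited and 0.04 after scaling. Of the 2 identifiers, only ENSDARG00000026048 thus had a negative difference, on both scales, with the unstable call given above. Of those not called, PIK3R1, another PI3 kinase subunit, had 64.4 to 94.5 TPM in pools 3 and 4, against 15.9 to 27.9 TPM in pools 1 and 2. Its log2 difference after scaling was 0.76 (limma F test adjusted p = 0.153). The transcription factor genes foxo3b (0.71 after scaling, limma F test adjusted p = 0.158) and FOXO4 (-0.37 after scaling, adjusted p = 0.363), whose products AKT keeps out of the nucleus, did not pass either. These 3 also depended on scaling: with the TPM as deposited the F test called PIK3R1 (1.81; adjusted p = 0.00867) and foxo3b (1.76; adjusted p = 0.00485), and FOXO4 turned to 0.68 without being called (adjusted p = 0.134).

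Some further ligands, receptors and partners of the pathway were chosen after their values had been seen. The insulin gene ins was listed at 1.01 TPM in the GFP-negative library of pool 2 and at 0 elsewhere, and insb at 0 throughout. INSR ENSDARG00000011948 had 7.72 to 17.9 TPM in pools 3 and 4, against 8.01 to 16.5 TPM in pools 1 and 2, and INSR ENSDARG00000071524 had 9.64 to 18.8 TPM in pools 3 and 4, against 6.15 to 9.28 TPM in pools 1 and 2. The log2 difference turned from 0.10 as deposited to -0.90 after scaling for the first (limma F test adjusted p = 0.257) and from 0.73 to -0.26 for the second (limma F test adjusted p = 0.867), with overlap after scaling for both. IGF2R, the receptor that clears IGF2 in mammals, had 4.99 to 20.5 TPM in pools 3 and 4, against 2.85 to 6.93 TPM in pools 1 and 2 (limma F test adjusted p = 0.561). IGFALS, which encodes a partner of IGFBP3 in mammalian blood, had 7.43 to 9.94 TPM in pools 3 and 4, against 2.70 to 5.43 TPM in pools 1 and 2. Its log2 difference was 0.89 as deposited but -0.02 after scaling (limma F test adjusted p = 0.772).

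By pattern over the 8 libraries, the non-member genes most like the 4 most abundant members were sought among 13877 tested genes by Pearson correlation of log2(scaled TPM + 1). For igf2b these were fcer1gl (r = 0.964) and si:ch211-254o16.1 (r = 0.957), for IGFBP7 vap (0.962) and GSR (0.960), for IGFBP5 ENSDARG00000025348 TFE3 (0.978) and ABL2 (0.973), and for IGFBP3 cog5 (0.970) and ENSDARG00000101101 (0.962). These are the highest of many values over 8 libraries that share pools, and are a description. The lowest values of fcer1gl, si:ch211-254o16.1, vap, ABL2 and ENSDARG00000101101 lay between 0 and 0.15 TPM, and that of cog5 was 0.50 TPM. GSR and TFE3 stayed at or above 2.89 TPM. TFE3, a transcription factor, had 22.2, 19.1, 6.98 and 9.64 TPM in the GFP-positive libraries of pools 3, 4, 1 and 2, against 13.0, 12.1, 6.08 and 8.70 TPM in the GFP-negative ones.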

How the data were processed

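According to the labels' protocols, 0.2 to 0.6 ng of RNA per sample went through a single-cell library kit with 2 rounds of amplification, and single reads of 60 bases were taken. The protocol text names a second kit and mCherry cells besides; grouping followed the titles, which name GFP. Per the submitters' processing notes, CASAVA 1.8.2, cutadapt and RSEM 1.2.25 were used with genome build Zv9. The deposited values are TPM, judged from column sums of 1000000 within rounding. TPM keeps no depth, so no counting interval was computed.

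Tested were the 13877 genes that reached 1 TPM in 4 or more libraries. Scaling factors came from a trimmed mean of log ratios, unweighted, with 30% of ratios and 5% of abundances removed at both ends. limma 3.58.1 (R 4.3.3) was fitted to log2(scaled TPM + 1) with a mean-variance trend, pool as a block and sort as a term, and an adjusted p under 0.05 was called. Fold changes on this scale understate low genes. The scripts were tested on simulated data. Python 3.11.15, pandas 2.3.3 and matplotlib 3.10.9 were used for tables and figures. Alternatives covered pseudocount, scaling, filter, variance estimate, block, and leaving out each pool or library.

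The series design calls the replicates paired, and the label pool marks each pair. Deviations of same-numbered libraries correlated at 0.492, 0.537, 0.446 and 0.403 for pools 1 to 4, but those of differently numbered libraries within pools 1 and 2 or within pools 3 and 4 did so at 0.382 to 0.552, so the pairing rests on the labels. No library repeated another (highest correlation 0.928).

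Members, lists and tests were chosen with earlier results of these data known. Of 67 pathway symbols 65 were matched by symbol, RefSeq synonym (GRCz12tu, for names alone) or symbol without paralog letter. Named by rule were all members, the called pathway genes, the 3 uncalled of highest mean, wt1a, and the 2 genes most like each of the 4 most abundant members; other pathway genes were chosen after their values were seen. Reads may be split among paralogs.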

Additional observations from a re-analysis of the deposited data

Results flagged for a closer look

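IGF1R ENSDARG00000034434 had 6.25 TPM in the GFP-positive library of pool 3, while the other 3 GFP-positive libraries had 1.84 to 2.16 TPM. In the TPM as deposited the gap took up 0.927 of the group's range, past Dixon's critical value for 4 samples. It was 1 of 31 groups examined, and chance flags about 1 in 20. After scaling, the GFP-positive libraries of pools 3, 4, 1 and 2 had 3.85, 1.75, 3.58 and 2.67, so that pool 3 lay close to pool 1. Without the flagged library the log2 difference between sorts, on scaled values, was 0.34, beside 0.50 with all libraries. Without its GFP-negative partner it was 0.33, and without both libraries of pool 3 it was 0.32. With pool as a block, a library left without its partner adds little, so these values do not single out the flagged library.

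IGFBP1 ENSDARG00000099351 went opposite ways between the labelled sorts in the 2 pairs of pools: the GFP-positive library was higher in both of pools 3 and 4 and lower in both of pools 1 and 2. In pool 1 the log2 difference after scaling was small, at -0.07, against -0.69 in pool 2. This arrangement of signs was found in 5.76% of all tested genes. The difference of the differences was 2.47 on the log2 scale (SE 0.66; limma adjusted p = 0.873), so the test did not pass over all genes. The GFP-negative libraries of pools 3 and 4 were at 0.07 and 0 TPM, so the size depends on the pseudocount.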

How the results depend on the processing

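No member was called between the labelled sorts under any of 22 alternatives, and the number of genes called ran from 0 to 3 with a pool or library left out. Without the replicate block limma called 0 members and 0 genes between the sorts, as with it. The pool F test needs the pool term and has no such fit. Leaving out a pool or library took igf2b from -0.29 to 0.055 and IGFBP7 from -0.22 to 0.38 (log2 difference between sorts). In the fit with separate pairs of pools, IGFBP1 was at -0.38 in pools 1 and 2 and IGFBP7 at -0.13 in pools 3 and 4, opposite to their overall signs. Among the pools, 1787 genes were called, against 4007 with the TPM as deposited, 884 without a filter on low values and 926 to 1429 with a pool or library left out. The count of members was 0 with a pseudocount of 0.1, 0 without a filter, and 0 to 1 with a pool or library left out. Other pathway genes numbered 16 with the TPM as deposited and 4 to 5 with a pool or library left out. The cause was not tested. Unknown depth limits igf1, igf2a and IGFBP5 ENSDARG00000039264, whose values lie near 0.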

Other observations

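Other genes of the IGF system, named after their values were seen, also varied between single libraries. IGFBP2 ENSDARG00000031422, a binding protein, had 27.2, 13.3, 1.70 and 0 TPM in the GFP-positive libraries of pools 3, 4, 1 and 2, against 0.78, 4.85, 1.09 and 0.62 TPM in the GFP-negative ones. STC2 ENSDARG00000056680, a stanniocalcin whose mammalian form inhibits the IGF binding protein protease PAPP-A, had 14.7 TPM in the GFP-negative library of pool 3 and at most 1.00 TPM in the others.

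The 2 identifiers of GRB10, the second also named after its values were seen, differed in their arrangement. ENSDARG00000002013 was lower in pools 3 and 4 as given above, whereas ENSDARG00000035308 had 13.6 to 38.0 TPM in pools 3 and 4, against 9.29 to 15.8 TPM in pools 1 and 2 (log2 difference 0.15 after scaling and 1.17 as deposited; limma F test adjusted p = 0.349).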
